A study of Mus musculus with 9 samples.

Results

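The regions described here are stretches of open chromatin in the mouse mammary epithelium whose signal rose in 2 steps, from basal cells to ER- luminal cells and again from ER- luminal to ER+ luminal cells. They were chosen on the puberty and adult libraries of an ATAC-seq series, an assay that finds accessible DNA by where the transposase Tn5 can insert adapters. Values were taken as L = log2(signal + 1) and averaged over the puberty and adult libraries of a cell type. A region was kept when the ER- luminal mean exceeded the basal mean by at least 1 and under 2, the ER+ luminal mean exceeded the ER- luminal mean by at least 1 and under 2, and both ER+ luminal signals were at least 30. A log2 step of 1 is a 2-fold difference. The rule kept 986 of 124860 regions, or 0.79%, and it did not use the pregnancy libraries.

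The series holds 9 libraries, 1 each for basal cells, ER- luminal cells and ER+ luminal cells at puberty, in adulthood and in pregnancy, isolated by FACS. All 9 carry the genotype ERrtTA/TetOCre/rosaYFP, the basal and ER- luminal cells included, so no library comes from mice without these alleles. The number and age of the mice, the sort markers, and whether the inducible alleles were switched on are not stated in the sources used here. The region numbers are not paired with genes or positions in the table, so the sorted cell types could not be checked against marker genes, and no sequence, gene or chromosome is given. Because each cell type and stage has 1 library, a difference between stages within a cell type, or between cell types within a stage, has no replicate check. Bulk signal also cannot tell a region open in fewer cells from one less open in each cell.

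As background, the mammary duct has an outer layer of contractile basal cells and an inner layer of luminal cells. ER+ luminal cells carry the oestrogen receptor, respond to ovarian hormones and pass signals to their neighbours. ER- luminal cells lack the receptor and include the progenitors of the milk-producing alveoli that expand in pregnancy. Open chromatin marks promoters and enhancers, and enhancers in particular differ between related cell types. A graded region is thus neither shared by the luminal cells at 1 level nor restricted to ER+ cells.

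The libraries held 2186941 to 11328189 reads in regions, with the pregnancy libraries the shallowest at 2186941 to 3418164. A single read was worth 0.526 to 2.2 units of signal, so that a count of 0 reads allows up to 1.58 to 6.6 units (3 reads). In the ER+ luminal pregnancy library the signal over all regions correlated more with the ER- luminal libraries (Pearson r of 0.768, 0.744 and 0.732 in pregnancy, puberty and adults, across 124860 regions) than with the ER+ luminal libraries of puberty and adults (0.708 and 0.699). With the basal libraries r was 0.718 at puberty, also above its own earlier libraries, 0.676 in adults and 0.695 in pregnancy. It also had the narrowest range, with a 90th percentile 16.3 times the 10th, against 23.0 to 88.3 in the other libraries. The step from basal to ER- luminal cells does not use this library. Its part in the results that do was not tested, except where values without it are given.

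At puberty and in adults the rising regions formed a staircase, which is what the rule asked for. At puberty their median signal was 11.9 in basal cells, 35.8 in the ER- and 90.7 in the ER+ luminal library. In adults it was 13.4, 29.7 and 88.1 in the same order. The basal signal was low but rarely at the limit of detection, since no region was without a read at these stages, and 24 at puberty and 33 in adults had 3 reads or fewer in basal cells. In ER+ luminal cells the signal reached from 30.5 to 640 at puberty and from 30.8 to 659 in adults. Over both stages the median first step, from basal to ER- luminal, was 1.32 on the log2 scale, and the median second step, from ER- to ER+ luminal, was 1.37. These values chose the regions and are a description. The rising regions took 1.87% and 1.83% of the ER+ luminal reads in regions at puberty and in adults, 0.749% and 0.664% of the ER- luminal reads and 0.239% and 0.273% of the basal reads.

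**Figure D1:**
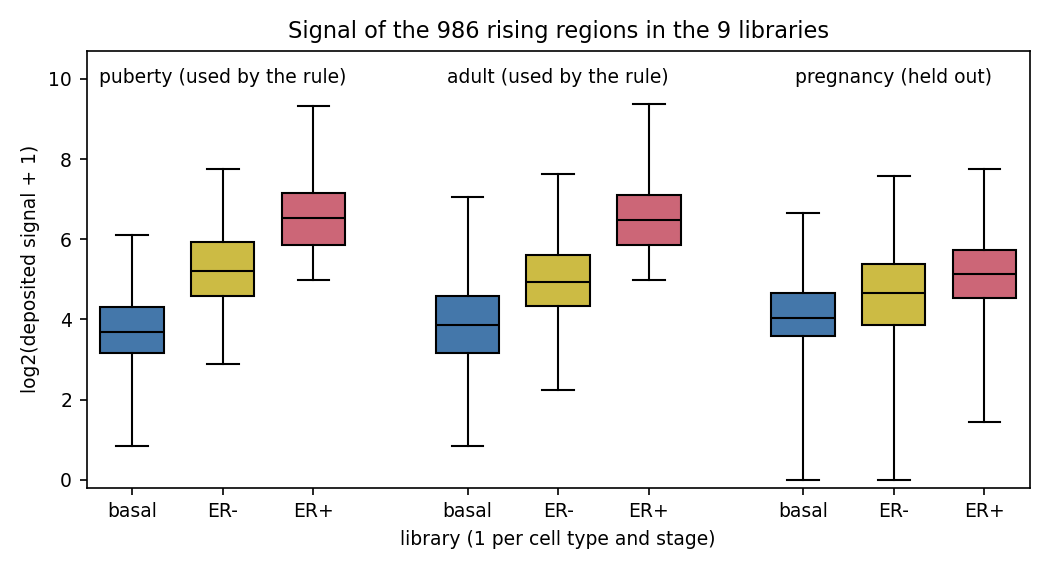
Log2(deposited signal + 1) of the 986 rising regions in each of the 9 libraries, as boxes from the lower to the upper quartile with the median, and whiskers to the lowest and highest value. The medians climb from basal to ER+ luminal cells at each stage, and the climb is shallower in the held-out pregnancy libraries, where the ER+ luminal median is 33.9 units of signal.

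The region nearest to the median of both steps, merged77518, shows what a graded region looks like. Its signal at puberty was 31.7 in basal cells, 156 in the ER- and 339 in the ER+ luminal library. In adults it was 48.1, 62.4 and 195, and in pregnancy 17.6, 60.7 and 93.2. The 3 cell types kept the same order at each stage. On the log2 scale the adult ER- luminal value lay closer to the basal value and the pubertal one closer to the ER+ luminal value. The brightest region by its mean over the 9 libraries, merged55394, had 48.3, 204 and 602 at puberty, 113, 198 and 659 in adults, and 33.0, 88.0 and 139 in pregnancy. It too kept the order at each stage.

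The thresholds of the rule cut through a continuum. Of 1857 regions with both steps in range, 871 were left out by the ER+ minimum of 30. The region just above that minimum had ER+ luminal signals of 30.5 and 47.0 at puberty and in adults, and the one just below it 30.0 and 42.8. At the lower limit of the first step the nearest regions inside and outside had mean steps of 1.0005 and 0.9989, and at the upper limit 1.9991 and 2.0013. At the lower limit of the second step they had 1.0003 and 1.0000 (0.99995 before rounding), and at the upper limit 1.998 and 2.001. A second step too large for the rule left out 242 further regions that met the other conditions, and a first step too large left out 60.

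A mean over 2 stages hides differences between them. Only 168 of the 986 rising regions met the rule on the puberty libraries alone and also on the adult libraries alone. Another 286 met it at puberty and not in adults, 198 in adults and not at puberty, and 334 at neither stage, being in range through the mean. The order basal, ER- luminal, ER+ luminal, which the rule nearly fixes at these stages, held in 980 regions at puberty and in 970 in adults.

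The first step was larger at puberty and the second in adults. The median difference between ER- luminal and basal cells was 1.56 at puberty (quartiles 1.2 and 1.96) and 1.08 in adults (0.75 and 1.49). The median difference between ER+ and ER- luminal cells was 1.30 at puberty (1.01 and 1.58) and 1.51 in adults (1.19 and 1.84). The ER- luminal cells thus stood at 54.6% of the rise from basal to ER+ luminal cells at puberty and at 41.2% in adults, as a ratio of medians. The first step was smaller in adults in 69.6% of the rising regions, against 52.3% of all regions. The second step was smaller in adults in 36.7%, against 47.8%. In regions with both ER+ luminal signals at least 30 these shares were 68.9% and 40.4%. In the sets described below they were 70.8% and 22.6% (whole rise at the ER+ step) and 76.3% and 34.5% (whole rise at the luminal step). A smaller first step in adults was thus not particular to the rising regions. ER- luminal signal was the part that differed most, with a median log2 difference between adults and puberty of -0.31, against 0.21 in basal and -0.10 in ER+ luminal cells. Over the 38295 regions with both ER+ luminal signals at least 30 the ER- luminal median was -0.26, so a lower adult ER- luminal signal was shared by regions bright in ER+ luminal cells. These differences between single libraries have no test.

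The difference between adults and puberty that the 3 cell types share does not use the mean on which the regions were chosen, and it was tested with cell type and stage as additive terms, fitted to all 9 libraries. Limma called 0 of the 986 rising regions at an adjusted p under 0.05, where 0.0016% of all regions were called. At an unadjusted p under 0.05 there were 36 rising regions, 18 higher and 18 lower in adults, or 3.65% against 4.63% of all regions. On the recovered reads edgeR and DESeq2 also called 0 rising regions, where 2 and 10 of all regions were called. The median log2 difference was -0.07 over the rising regions and 0.03 over all regions, and the former rested on single libraries. It was above 0, at 0.01, 0.16, 0.02 and 0.04, without the ER- luminal library of puberty, the ER+ luminal one of puberty, the basal adult one or the ER- luminal adult one. It was -0.36 without the basal puberty and -0.29 without the ER+ luminal adult library. In the region with the smallest p, merged94012, the log2 difference was -1.54 (SE 0.52, limma adjusted p = 0.975).

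A second test asked whether the climb from basal to ER+ luminal cells was steeper at either of these stages. Limma called 0 of the 986 rising regions and 0% of all regions. With edgeR and DESeq2, 0 rising regions were called, against 0 and 1 of all regions. An unadjusted limma p under 0.05 was reached by 3 rising regions (0.30%, against 1.53% of all regions). The median estimate, the ER+ to basal difference in adults minus that at puberty, was -0.28 on the log2 scale, with 604 regions below 0 and 382 above. This median was 1.42 without the basal puberty and 0.95 without the ER+ luminal puberty library. It was -1.39 and -2.14 without the basal adult and ER+ luminal adult libraries. With any of these left out, the fit sets the remaining stage against the pregnancy libraries, where the climb was shallower. These values therefore cannot show whether the direction between adults and puberty was stable. With 0 rising regions called, a difference in slope was not detectable with these libraries.

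In the held-out pregnancy libraries the order was kept in 478 of the 986 rising regions, or 48.5%, against 17.5% of all regions. Median signals were 15.4 in basal cells, 24.3 in the ER- and 33.9 in the ER+ luminal library. The lowest and highest signals were 0 and 99.0, 0 and 190, and 1.70 and 214 in the same order, so the 3 ranges overlapped widely. The staircase was thus still visible at the median, with lower steps than at the earlier stages. The median first step was 0.62 (quartiles 0.05 and 1.12), the median second step 0.46 (-0.17 and 0.97) and the median rise over both 0.98 (0.45 and 1.66). In the 325 regions with at least 10 reads in each pregnancy library the steps were 0.51 and 0.28. Setting a library without a read to 3 reads changed the median rise to 0.94.

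The whole climb was kept more often than either step. ER+ luminal signal exceeded basal signal in 872 rising regions (88.4%, against 49.7% of all regions) and was at least 2-fold higher in 489 (49.6%, against 18.8%). ER- luminal signal exceeded basal signal in 755 (76.6%, against 50.4%) and was at least 2-fold higher in 306 (31.0%, against 15.4%). ER+ luminal signal exceeded ER- luminal signal in 678 (68.8%, against 49%) and was at least 2-fold higher in 231 (23.4%, against 18.8%). Both steps were at least 2-fold in 24 rising regions (2.43%, against 1.44%), and 12 met the full rule on the pregnancy libraries alone. The share with a 2-fold second step was thus near that of all regions, which says nothing particular about the rising regions.

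When the order broke, it was mostly at the middle of the staircase. ER- luminal signal was the highest of the 3 and basal the lowest in 230 rising regions (23.3%, against 16.7% of all regions). ER- luminal was the lowest and ER+ luminal the highest in 163 (16.5%, against 15.3%), a share near that of all regions. The remaining orders were rarer in the rising regions than over all regions. ER+ luminal was the lowest and ER- luminal the highest in 47 rising regions (4.77%, against 16.11% of all regions). ER- luminal was the lowest and basal the highest in 36 (3.65%, against 15.99%). The full reverse order was present in 31 (3.14%, against 17.9% of all regions). In 1 region 2 cell types were tied. Both steps contain the ER- luminal value with opposite signs, so a region with a high first step tends to a low second step in the plot of both steps in pregnancy.

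**Figure D2:**
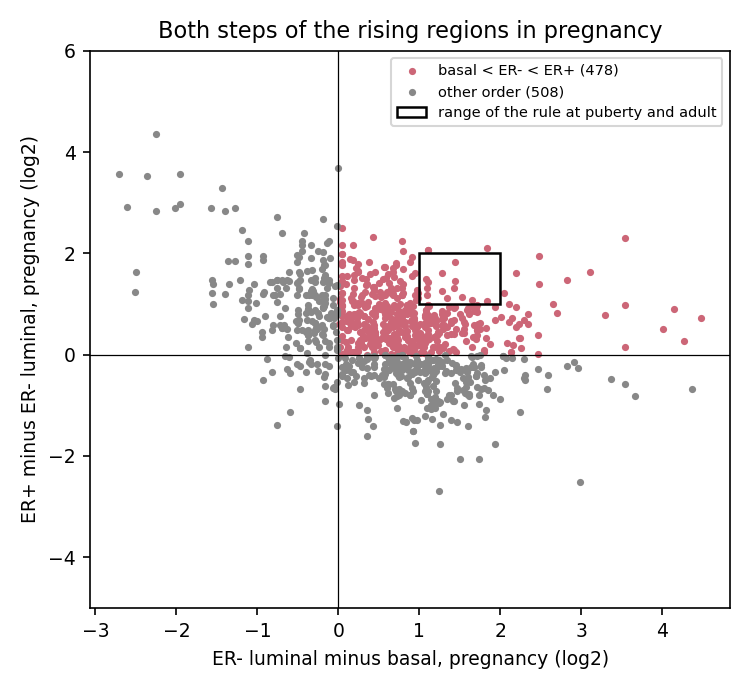
Each point is 1 of the 986 rising regions, with the log2 difference of ER- luminal and basal cells in pregnancy on the horizontal axis and that of ER+ and ER- luminal cells on the vertical axis. The 478 regions that kept the order fill the upper right quadrant, most of them below or to the left of the square that marks the range of the rule at the earlier stages.

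Counting error was large in single regions in pregnancy, where the median rising region had 7 basal, 16 ER- luminal and 20 ER+ luminal reads, and 15 had no basal read. The exact 95% counting interval of the ratio of ER+ luminal to basal signal lay above 1 in 395 rising regions (40.1%, against 9.07% of all regions) and below 1 in 1 (against 13.4%). It lay above 1 in 204 for ER- luminal over basal signal (20.7%, against 10.5%) and in 245 for ER+ over ER- luminal signal (24.8%, against 9.91%), and below 1 in 10 (against 11.2%) and 39 (against 13.7%). Of the 38295 regions bright in ER+ luminal cells, 18.3% lay above 1 for ER+ luminal over basal, 21.3% for ER- luminal over basal and 15.4% for ER+ over ER- luminal signal, so the share for the first step was no higher in the rising regions. For ER+ luminal over basal signal the interval of 590 regions (59.8%) included 1, so in these a difference was not detectable at this depth. Summed over the rising regions, the signal ratio of ER+ luminal to basal cells was 2.12 in pregnancy (counting interval 2.07 to 2.17), against 7.85 at puberty and 6.08 in adults. The ratio of ER- luminal to basal cells was 1.62 in pregnancy (1.58 to 1.66), 3.22 at puberty and 2.12 in adults. These intervals cover counting error only and compare libraries.

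The lower staircase in pregnancy came with lower signal at its top and, outside the brightest regions, slightly higher median signal at its base. In 4 groups from dim to bright by the puberty and adult libraries, basal signal in pregnancy differed from its earlier mean by a median log2 of 0.74, 0.42, 0.24 and -0.12. From adults to pregnancy the median log2 difference was -1.37 in ER+ luminal cells (quartiles -1.94 and -0.85), -0.30 in ER- luminal cells (-0.87 and 0.23) and 0.20 in basal cells (-0.48 and 0.89). ER+ luminal signal was at least 2-fold lower than in adults in 666 rising regions (67.5%, against 22.3% of all regions) and at least 2-fold higher in 0 (against 24.4%). It was at least 2-fold lower in 37.0% of the 38295 regions bright in ER+ luminal cells. In the sets described below it was so in 75.2% (whole rise at the ER+ step) and 56.6% (whole rise at the luminal step). This lower signal was thus not particular to the rising regions. ER- luminal signal was at least 2-fold lower in 203 (20.6%, against 10.5%). Basal signal was at least 2-fold higher in 213 (21.6%, against 19.3%), a share near that of all regions. In 946 regions (95.9%) the ER+ luminal pregnancy signal lay below both earlier ER+ luminal signals, against 41.9% of all regions and 77.0% of the 38295 regions with both earlier ER+ luminal signals at least 30. The ER- luminal pregnancy signal lay below both earlier ER- luminal signals in 581 (58.9%, against 34.3% and 50.7%), and the basal pregnancy signal lay above both earlier basal signals in 478 (48.5%, against 37.9% and 21.7%). The rule chose regions high in ER+ and low in basal cells at the earlier stages, so part of such a difference comes with the choice. How large a part the profile of the ER+ luminal pregnancy library has in it was not tested.

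Across stages, the 3 ER+ luminal signals lay above all 3 basal signals in 789 rising regions (80.0%, against 19.6% of all regions). The 3 ER- luminal signals lay above all 3 basal signals in 512 (51.9%, against 12.8%), and the 3 ER+ luminal signals lay above all 3 ER- luminal signals in 313 (31.7%, against 18.2%). The rule had fixed most of these orders at puberty and in adults, so only the pregnancy values could break them. The ER+ luminal pregnancy signal fell between the highest earlier basal and the lowest earlier ER+ luminal signal in 820 regions (83.2%). This held in 16% of all regions and in 29.8% of the 38295 regions bright in ER+ luminal cells. The rule favoured a wide gap between these earlier signals, and a region without such a gap cannot be counted. The contrast between these shares therefore comes in part with the choice.

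Choosing regions on 1 stage and reading them in the others held out an earlier stage as well as pregnancy. The pregnancy libraries remained shallower, and the ER+ luminal one kept its narrower range. The rule applied to puberty alone kept 1456 regions. In adults, which were then held out, 70.5% of these kept the order, and in pregnancy 43.4%. Their median rise from basal to ER+ luminal cells was 2.84 at puberty, 2.32 in adults and 0.90 in pregnancy. The median first step was 0.51 in adults and 0.42 in pregnancy, so that it was nearly as low in adults as in pregnancy. The second step, 1.72 in adults and 0.53 in pregnancy, made the difference between these stages.

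The rule applied to adults alone kept 1006 regions, of which 77.4% kept the order at puberty and 43.2% in pregnancy. The median first step was 1.09 at puberty and 0.51 in pregnancy, and the median second step 1.23 and 0.36. The rule applied to pregnancy alone kept 272 regions, fewer than at either earlier stage. Their median rise was 2.42 at puberty and 2.62 in adults, with a median second step of 1.99 and 2.64 and a median first step of 0.44 and -0.05. In these regions ER- luminal signal exceeded basal signal in 182 of 272 at puberty and in 135 in adults. With reads thinned to the depth of the shallowest library, regions chosen on puberty kept the order in 66% in adults and 41.8% in pregnancy. The 986 rising regions kept the order in 46.1% in pregnancy at equal depth, against 48.5% with all reads. Thinning matched the total reads alone, and the narrower range of the ER+ luminal pregnancy library remained.

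**Figure D3:**
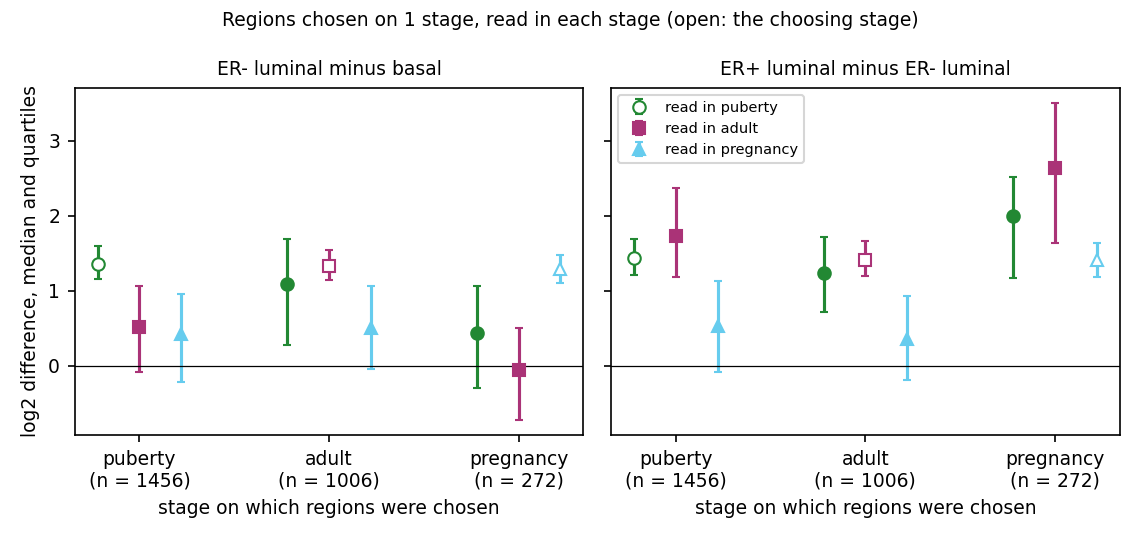
Median log2 steps, with bars from the lower to the upper quartile, of regions chosen by the rule on the libraries of 1 stage (1456, 1006 and 272 regions) and read in each of the 3 stages; open symbols are the stage used for the choice. Both steps are lower in pregnancy for regions chosen on puberty or adults, and regions chosen on pregnancy have a first step near 0 in adults and a second step of 2.64.

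The size of a step at the earlier stages carried over to pregnancy to a limited degree. The rising regions were split into 4 groups of 246 or 247 by the second step at puberty and in adults. From the group with the lowest to that with the highest earlier step, the median second step in pregnancy was 0.20, 0.38, 0.56 and 0.76. In 4 groups by the first step the median first step in pregnancy was 0.44, 0.67, 0.62 and 0.79. Over the 986 regions the Pearson r between the adult and the pregnancy value was 0.27 for the second step and 0.11 for the first. Between puberty and pregnancy it was -0.01 for both. The rule holds the earlier steps in a narrow range, and the stages share no library.

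Brightness was taken as the mean over the 6 puberty and adult libraries, which leaves the pregnancy values out of the split. In 4 groups from dim to bright, 46.2%, 38.2%, 49.6% and 59.9% kept the order in pregnancy, with medians of 28, 35, 53 and 79 reads summed over the 3 pregnancy libraries. The share was highest in the brightest group and lowest in the group above the dimmest, so it did not follow brightness throughout. The median first step was 0.53, 0.44, 0.68 and 0.74, and the median second step 0.48, 0.49, 0.41 and 0.44. The median rise over both was 0.83, 0.87, 1.04 and 1.16. Depth and brightness move together here, and their separate parts were not tested.

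The regions with the highest and lowest rise in pregnancy show the range. Those with the highest rise were chosen for it among 980, so their counting limits describe counting error and test nothing. Region merged11931 had no read in basal cells in pregnancy, 10.6 units in the ER- and 55.9 (33 reads) in the ER+ luminal library. Its ratio of ER+ luminal to basal signal had a lower exact 95% counting limit of 6.52 (8.48-fold against a floor of 3 basal reads). Its signals were 7.91, 58.1 and 118 at puberty and 15.8, 23.0 and 169 in adults. Region merged117811 also had no basal read in pregnancy, with 21.2 and 35.6 units in ER- and ER+ luminal cells. Its lower counting limit for the same ratio was 4.01 (5.40-fold against the floor). At puberty it had 8.71, 18.6 and 104 units, and in adults 9.47, 23.8 and 69.3. Both regions kept the order at each of the 3 stages.

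The 2 regions with the lowest rise were chosen for that rise among 980, so their intervals describe counting error and test nothing. Region merged28643 was reversed in pregnancy, with 41.8 units in basal cells, 27.3 in the ER- and 11.9 in the ER+ luminal library. Basal signal was 3.52 times the ER+ luminal signal, with a 95% counting interval of 1.42 to 9.91. At puberty it had 9.50, 46.6 and 96.8 units and in adults 22.1, 26.0 and 103, so its basal signal was highest and its ER+ luminal signal lowest in pregnancy. Region merged81063 had 11, 6.07 and 1.70 units in pregnancy, from 5, 4 and 1 reads. Its basal to ER+ luminal ratio of 6.49 had a counting interval of 0.726 to 307. At puberty it had 1.58, 6.45 and 44.7 units, and in adults 3.16, 13.4 and 33.4.

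The difference between pregnancy and the earlier stages that the cell types share was counted in the same model, as a description with no weight as a test, since the adult and puberty values had entered the rule and a lower pregnancy value is favoured by the choice. From adults to pregnancy limma called 59 of the 986 rising regions lower (5.98%) and 0 higher, where 1.67% of all regions were called lower and 0.196% higher, 1.86% in all. The median log2 difference was -0.49 over the rising regions and 0.03 over all regions. From puberty to pregnancy limma called 104 rising regions lower (10.5%) and 2 higher, where 3.5% of all regions were called lower, 1.83% higher and 5.33% in either direction. The median was -0.61 over the rising regions and 0.05 over all. Both comparisons use the same pregnancy libraries.

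These counts rested on single libraries, in the rising regions as in all 124860 regions. From adults to pregnancy, the 59 calls became 0 without the basal adult library and 12 without the ER+ luminal adult one. They became 25 without the ER- luminal pregnancy, 32 without the ER- luminal puberty and 135 without the basal pregnancy library. Over all regions the 2325 calls became 56, 412, 1033, 1236 and 3268 in the same order. Without the ER+ luminal pregnancy library there were 32 lower and 2 higher, against 1529 and 161 over all regions. The median over the rising regions was then -0.04. From puberty to pregnancy, the 106 calls became 0 without the ER- luminal puberty library and 4 without the ER+ luminal puberty one. They became 42 without the ER- luminal pregnancy, 176 without the basal puberty and 207 without the basal pregnancy library. Over all regions the 6656 calls became 80, 327, 3480, 7232 and 8101 in the same order. Without the ER+ luminal pregnancy library there were 47 lower and 15 higher, against 2483 and 905 over all regions. The median over the rising regions was then -0.13. Without a trend in the prior variance limma called 0 rising regions in both comparisons, and 26 and 30 of all regions. At an unadjusted p under 0.05 there were 199 rising regions (20.2%, against 13.2% of all regions) and 239 (24.2%, against 18.2%).

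Next to sets with the rise in 1 place, the rising regions were the set whose median steps in pregnancy were both above 0. A set with the whole rise at the ER+ step (4131 regions, first step within 0.5 of 0 and a rise of 2 to 4, both ER+ luminal signals at least 30) had median steps in pregnancy of -0.05 and 1.10. A set with the whole rise at the luminal step (557 regions, second step within 0.5 of 0, same rise and minimum) had 1.12 and -0.49. All 38295 regions with both ER+ luminal signals at least 30 had 0.20 and -0.07. The rising order was present in pregnancy in 39.3%, 21.9% and 20.2% of these sets, against 48.5% of the rising regions. The mirror image, 854 regions that fell in 2 steps from basal to ER+ luminal cells by the same rule with the cell types exchanged, had steps of -1.12 and -0.24 in pregnancy, and 57.3% kept the falling order. The counting interval of ER+ luminal over basal signal in pregnancy lay above 1 in 35.0% of the set that steps at ER+ and in 32.0% of the set that steps at luminal, against 40.1% of the rising regions. The median rise from basal to ER+ luminal cells in pregnancy was 1.07 and 0.66 in these sets, against 0.98. A 2-fold rise was present in 53.3% and 30.9%, against 49.6%. The kept climb was thus not particular to the rising regions. With 1 library per cell type these differences between sets have no test.

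**Figure D4:**
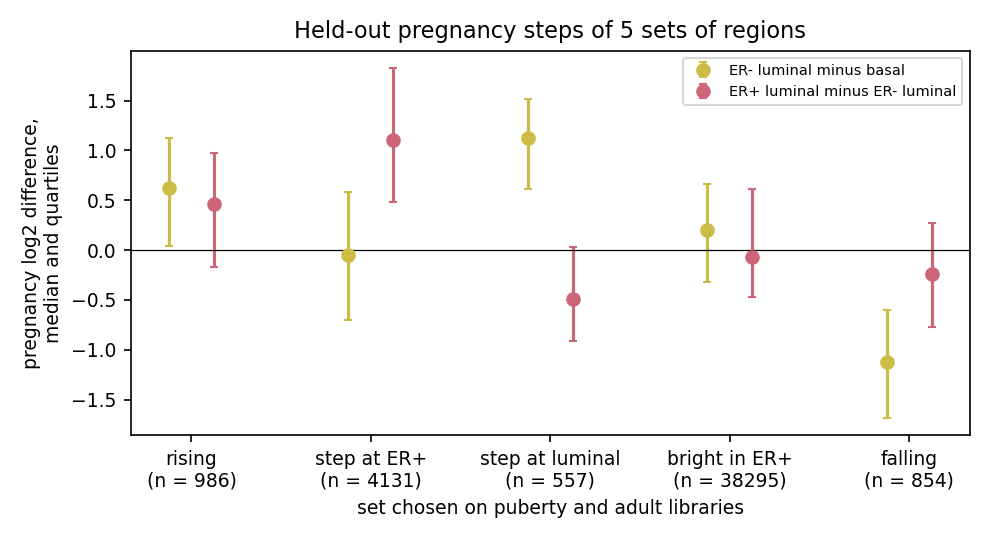
Median log2 steps in the held-out pregnancy libraries, with bars from the lower to the upper quartile, for the 986 rising regions and 4 comparison sets chosen on the puberty and adult libraries. The rising regions have both medians above 0, the set that steps at ER+ has the second alone, the set that steps at luminal the first alone, and the falling set has both below 0.

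The region numbers, which run from 1 to 124862, gave the only hint of position. Whether they follow the genome is not known from those sources. The rising regions were spread over the whole numbering, at 0.561% to 0.897% of the regions in each of 10 equal stretches of it. Consecutive numbers held 24 pairs of rising regions and the other 938 stood alone, so 2.43% of the regions next to a rising region were themselves rising, against 0.79% of all regions. The 1905 other regions next to a rising region had a median rise from basal to ER+ luminal cells of 0.69 at puberty and in adults (quartiles -0.41 and 1.86), against -0.04 over all other regions. The median was 0.43, 0.40, 0.27 and 0.15 at a distance of 2, 3, 5 and 10 numbers and -0.04 at 20. In pregnancy it was 0.19 next to a rising region, 0.04 at 10 numbers and 0.00 at 20, against -0.01 over all other regions. Regions numbered close to a rising region thus leaned towards ER+ luminal cells in the same libraries, less so with distance and less so in pregnancy.

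**Figure D5:**
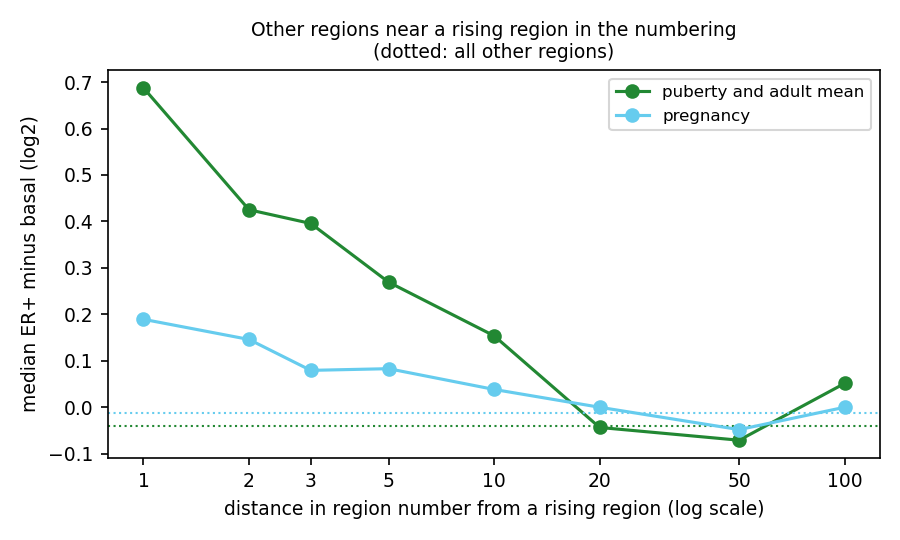
Median log2 difference of ER+ luminal and basal cells in other regions, by their distance in region number from a rising region (log scale), for the mean of puberty and adult and for pregnancy; dotted lines give the medians of all other regions. The puberty and adult medians go from 0.69 next to a rising region to -0.04 at a distance of 20.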

How the data were processed

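The deposited table holds 1 normalized signal per region and library. Build GRCm38 (mm10), MACS2 2.1.0.20151222, Picard, SAMtools and Bowtie2 2.2.6 are named in the submitters' processing notes. How regions were merged, whether Tn5 cuts were shifted and how the signal was normalized are not stated in the sources used here. The labels name total RNA as the molecule, while their protocols describe Tn5 tagging. Within a tolerance of 0.02 reads, 100% of the deposited signal values were whole multiples of a value per library, taken as that of 1 read. The signal was compared between libraries as it stands, as log2(value + 1), which understates differences of low regions.

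Stage differences were tested with limma 3.58.1 (R 4.3.3), with cell type and stage as additive terms, all 9 libraries, a variance trend and Benjamini-Hochberg adjustment over 124860 regions, with no filter on low values. The test of the slope added a score for the climb (basal, ER- luminal, ER+ luminal) times adult minus puberty. Their error is how far libraries lie from additivity, not a spread between mice. Alternatives used edgeR 4.0.16 and DESeq2 1.42.0 on the recovered reads. The models were tested on simulated data. Counting intervals are exact 95% intervals that treat reads as independent, which PCR copies are not.

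Regions and comparison sets were chosen with earlier results of these data known. Named regions are the 2 with the highest and the 2 with the lowest rise in pregnancy among 980 with at least 10 reads summed over the pregnancy libraries; others are given by a property.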

Additional observations from a re-analysis of the deposited data

Results flagged for a closer look

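In the rising regions the medians of basal and luminal cells moved in opposite directions between stages. Each median comes from 1 library per stage, and the differences between cell types were not tested. From puberty to adults the median log2 difference was 0.21 in basal cells, -0.31 in the ER- and -0.10 in the ER+ luminal libraries, so that ER- and ER+ luminal cells lay -0.52 and -0.31 from basal cells. From adults to pregnancy it was 0.20, -0.30 and -1.37, or -0.50 and -1.57 from basal cells. From puberty to pregnancy it was 0.39, -0.59 and -1.47, or -0.98 and -1.86 from basal cells. The set with the whole rise at the luminal step had 0.40, -0.20 and -0.05 from puberty to adults. From adults to pregnancy it had 0.34, -0.44 and -1.13, so the pattern was not particular to the rising regions. In regions bright in ER+ luminal cells the basal median was 0.06 and then -0.41. In the set with the whole rise at the ER+ step it was -0.07 and then 0.19. The rule chose regions low in basal and high in ER+ luminal cells on the earlier libraries, which was not separated from these differences.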

How the results depend on the processing

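Of 127 alternative values, 80 were rated the same as the main value, 47 moved and 0 turned a direction. Most of them were counts or shares, which cannot turn a direction, and some belonged to regions named for their extreme rise. The median shared difference between adults and puberty, given above, did turn without single libraries. So did the median slope, in fits that drew on the pregnancy libraries in place of the one left out. The count of 986 rising regions stayed within 1.5 times under a pseudocount of 0.25 (1058, of which 944 shared) or 4 (701, 630 shared), quantile normalization (797, 631 shared), RPM scaling (1072, 929 shared), and puberty (1456) or adult (1006) libraries alone. It was 272 on the pregnancy libraries alone, a choice added after seeing the data. The share in order in pregnancy, 48.5%, was 52.6% with quantile normalization, 52.5% with RPM scaling, 44.6% in the 325 regions with at least 10 reads in each pregnancy library, and 43.4% and 43.2% for regions rechosen on puberty or adults. The share at least 2-fold higher in ER+ luminal than basal cells, 49.6%, was 44.1% with a pseudocount of 4, and 64.6%, 54.0%, 34.5%, 44.6% and 44.8% in the same order. The filter on 10 reads takes out regions with low basal signal by construction. The median first step, 0.62, was 0.55 with a pseudocount of 4, then 0.85, 0.52, 0.51, 0.42 and 0.51. The median second step, 0.46, was 0.60, 0.67 and 0.28, and 0.36 for regions rechosen on adults. The median rise, 0.98, was 0.87 with a pseudocount of 4, then 1.35, 1.08, 0.77, 0.90 and 0.87. Why these values moved was otherwise not tested.

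The 59 calls from adults to pregnancy became 35 with a pseudocount of 0.25, 0 without a variance trend and 37 with quantile normalization. They became 36 with edgeR, 98 with DESeq2 and 0 to 135 leaving out 1 library. Over all regions the 2325 calls became 1469, 26, 1226, 1003, 3192 and 56 to 3268 in the same order. The 106 calls from puberty to pregnancy became 0 without a variance trend, 67 with quantile normalization and 0 to 207 leaving out 1 library. Over all regions the 6656 calls became 30, 2906 and 80 to 8101 in the same order. Calls of rising regions between adults and puberty, and of the slope, were 0 under each of their 16 alternatives. Over all regions tested there were 0 to 13 and 0 to 10 calls. No paired analysis was possible because the labels give no replicate numbers and each cell type and stage has 1 library; cell type and stage are both in the models. Depth limits single regions in pregnancy most, where 160 rising regions had 3 basal reads or fewer.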
